A study of Mus musculus with 2 samples.

Results

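Immature neutrophils that carried transcripts of the secondary granule genes were followed among the CD45+ cells of inflamed mouse spinal cord. Of 20504 cells kept, 1279 (6.24%) met all of the following conditions: S100a8 and S100a9 together made up at least 1% of the cell's counts, Ltf and Camp each had at least 1 count, and Mki67, Top2a, Cd3d, Cd3e, Cd3g, Cd79a and P2ry12 had 0 counts. S100a8 and S100a9 encode the calcium-binding proteins that fill the neutrophil cytosol. Mki67 and Top2a mark dividing cells, the Cd3 genes T cells, Cd79a B cells and P2ry12 microglia. The cells were thus chosen by their measured expression, so the levels of these genes are given as a description, and so is every contrast with cells that the same conditions left out. They are called immature neutrophils here.

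The mice compared were all C57BL/6 and all had EAE (experimental autoimmune encephalomyelitis, a model in which T cells attack myelin of the brain and spinal cord) at day 15 after induction. An inhibitor had been given to 2 of them, and 2 were untreated. Their spinal cord CD45+ cells, that is leukocytes and microglia, were tagged with 1 hashtag antibody per mouse and pooled on 1 BD Rhapsody run. The sources used here give neither the inhibitor's name, target, dose and schedule nor the animals' age and sex, and the series title names STAP-1 mice beside the wild type while the sample labels do not. Inhibitor-treated replicates 1 and 2 gave 620 and 343 immature neutrophils, and untreated replicates 1 and 2 gave 168 and 148.

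Neutrophils load their granules in waves while they mature in the bone marrow. Promyelocytes make the azurophil granule enzymes such as myeloperoxidase and elastase, myelocytes and metamyelocytes make the secondary (specific) granule proteins, and band cells make gelatinase and the contents of secretory vesicles. The transcription factor C/EBP-epsilon is needed for the secondary granule wave, and the receptors and cytokine genes of the mature cell come on later. Neutrophils enter the spinal cord early in EAE. Among the marker genes, Ltf encodes lactoferrin, which binds iron. Camp encodes the antimicrobial peptide cathelicidin, Ngp a neutrophilic granule protein related to cystatins and Lcn2 lipocalin-2, which binds bacterial siderophores.

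Camp, Ngp and Ltf lie on chromosome 9, in GENCODE coordinates on GRCm38 at chr9:109847379-109849617 (minus strand), chr9:110419747-110423012 (plus strand) and chr9:111019271-111042767 (plus strand). Lcn2 lies at chr2:32384633-32388252 on the minus strand. Their promoters are shown because these 4 genes mark the cells, and Camp, Ngp and Lcn2 went up with Ltf when the cells were ordered by it. Each line runs 5' to 3' and comes from the RefSeq promoter table (GRCm38.p6). It begins 250 bases before the RefSeq start of the gene and stops at the first base that GENCODE annotates as untranslated region, which leaves 21 bases before that start unprinted for Ltf, 161 for Camp, 61 for Ngp and 58 for Lcn2. The RefSeq start of Lcn2 lies inside the longer GENCODE gene. Capitals mark matches to the letters TTNNGNAA, a form of the C/EBP recognition sequence, on either strand.
Ltf promoter, chr9:111019042-111019270, plus strand: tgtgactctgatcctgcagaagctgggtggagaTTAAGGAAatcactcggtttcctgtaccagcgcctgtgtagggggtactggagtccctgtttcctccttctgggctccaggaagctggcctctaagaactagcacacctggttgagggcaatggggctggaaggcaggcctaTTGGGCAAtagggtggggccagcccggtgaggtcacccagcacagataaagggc
Camp promoter, chr9:109849618-109849706, minus strand: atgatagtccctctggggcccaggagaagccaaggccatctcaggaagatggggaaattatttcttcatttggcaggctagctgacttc
Ngp promoter, chr9:110419558-110419746, plus strand: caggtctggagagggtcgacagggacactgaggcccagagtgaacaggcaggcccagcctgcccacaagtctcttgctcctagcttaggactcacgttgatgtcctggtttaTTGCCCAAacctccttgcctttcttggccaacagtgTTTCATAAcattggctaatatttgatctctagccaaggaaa
Lcn2 promoter, chr2:32387798-32387989, minus strand: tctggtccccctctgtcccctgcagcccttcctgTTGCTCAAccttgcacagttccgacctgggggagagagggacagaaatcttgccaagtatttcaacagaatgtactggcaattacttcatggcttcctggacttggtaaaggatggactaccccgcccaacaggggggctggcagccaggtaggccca
In the 250 bases before the RefSeq start, from which positions are counted, the Ltf promoter held 2 matches, beginning 217 and 75 bases before it. Ngp held 3, beginning at 138, 102 and 11 bases, the last of which lies in the unprinted bases. Lcn2 held 1, at 216 bases, and Camp none. The same letters were found in 36.8% of all 32851 promoters in the table. A match is a description of the letters and not a binding site.

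The 1279 cells held 8412684 and 4404164 counts in the treated mice and 2254078 and 2288814 in the untreated mice. Their median counts per cell were 11503 and 11031 in treated mice and 11445 and 12449 in untreated mice, with 1449 and 1392 genes against 1436 and 1539. Mitochondrial genes made up a median of 1.53% and 1.56% of counts in treated mice, against 1.77% and 2.73% in untreated mice. No column name was repeated. The names begin with the hashtag, so this cannot show whether mice shared a barcode. For 44 genes no nonzero count below 4 occurs in the deposited matrix, although 32.8% of all nonzero values are 1. Ltf, Camp, Lcn2, Chil3, Fcnb, Mpo, Elane, Mmp8, Retnlg, Cxcl2, Ifitm1, H2-Ab1, C1qa, Ttr and the haemoglobin genes are among them. A 0 of such a gene may stand for a low count removed before deposit, and it is given as listed at 0.

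The conditions picked a population with a wide margin on the S100 side and a narrower one on the granule side. The summed S100a8 and S100a9 share ran between 5.53% and 43.6% of a cell's counts with a median of 21.9%. Only 2 kept cells without exclusion genes had Ltf and Camp but fell below the limit, the higher of them at 0.550%. The median count was 134 for Ltf, 149 for Camp, 395 for Ngp and 238 for Lcn2, and Ltf was below 20 counts in 72 cells. Just outside the conditions, 330 neutrophils had Ltf without Camp, with a median of 17 Ltf and 99.5 Ngp counts, and 60 had Camp without Ltf. The 2741 neutrophils with neither had a median of 9 Ngp counts.

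Ngp, which the conditions did not use, had a count in 1279 of 1279 cells, and Lcn2 in 1278. Granule transcripts were also counted in cells of other types, as free RNA in a suspension can give. Ngp had a count in 75.5% of T cells and 84.0% of microglia, with medians of 10764 and 12606 counts per cell against 11451 in immature neutrophils. Its presence alone therefore did not set the cells apart. Ltf and Camp together were listed far more rarely elsewhere. Both had counts in 3 of 5094 T cells (0.0589%), 1 of 1585 microglia (0.0631%) and 0 of 823 B cells, for which the exact 95% interval reaches 0.447%. Their smallest nonzero counts in the matrix are 8 and 29, against 1 for Ngp, so lower counts may be listed at 0. The contrast with Ngp therefore does not show how much free RNA of Ltf and Camp those cells held. Ly6g, the surface antigen used to gate mouse neutrophils, had a count in 97.9% of the cells. Mpo was listed at 0 in all of them and Elane had a count in 0.704%, but both are genes without small counts in the matrix. Prtn3, the azurophil granule protease proteinase 3, is not one of those, and had 8.68 and 5.22 CPM (counts per 1000000) in treated mice and 9.76 and 17.9 CPM in untreated mice.

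The exclusion genes removed more cells than they left. Before they were applied, 2915 cells had the S100, Ltf and Camp values, and 56.1% of these were dropped. Mki67 or Top2a took 27.7% and the T cell, B cell and microglia genes 41.8%, with some cells in both. Most of the lymphocyte hits were single counts, since 75.2% of the Cd3e hits and 83.5% of the Cd79a hits were exactly 1. The cells dropped had a median of 18905 counts per cell. Removal took 55.0% and 53.8% of cells in treated mice, against 55.6% and 64.4% in untreated mice.

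Beside the 3131 other neutrophils, which met the same S100 and exclusion conditions but lacked Ltf or Camp, the immature neutrophils had more transcript of secondary granule and myelocyte genes. They had less transcript of the inflammatory cytokine, interferon-induced and mature receptor genes. Values are CPM, a gene's counts scaled to 1000000 counts of the summed cells of a mouse, and they were not compared between genes. Of 2404 genes with at least 50 CPM in either population, 19 were more than 4-fold higher in the immature neutrophils and 45 more than 4-fold lower. With every cell thinned to 2000 counts, which left out 1 other neutrophil, 2240 of the 2404 kept their sign. The median depth was 11451 counts per immature neutrophil and 6689 per other neutrophil.

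Chil3, which encodes the chitinase-like lectin Ym1 of immature mouse neutrophils, had the highest ratio to other neutrophils among these genes, leaving out those used as conditions. It had 2673 and 2678 CPM in treated and 2125 and 2425 CPM in untreated mice in the immature neutrophils, and in other neutrophils 60.6 and 70.0 CPM in treated and 66.8 and 75.1 CPM in untreated mice. The ratio of means was 35.8, and no mouse overlapped. A Chil3 count was listed in 68.7% of immature and 3.77% of other neutrophils, and with cells thinned to 2000 counts in 65.4% and 3.26%. The smallest nonzero count of Chil3 in the matrix is 7, so lower counts may have been removed before deposit. Thinning cannot restore such counts. How much of the ratio and of the detection gap came from their removal was not tested. Ngp averaged 37205 ± 2964 CPM in the immature neutrophils and 4570 ± 409 CPM in other neutrophils (SD, n = 4 mice each), an 8.14-fold ratio. Lcn2 averaged 20995 ± 1277 CPM against 8807 ± 578 CPM, a 2.38-fold ratio. Both markers were thus present in other neutrophils too, at a lower level.

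Genes of the myelocyte stage went the same way. Cebpe, which encodes C/EBP-epsilon, had 270 and 239 CPM in treated and 278 and 271 CPM in untreated mice, against 56.8 and 70.4 CPM in treated and 63.0 and 60.7 CPM in untreated mice in other neutrophils. Its 4.17-fold ratio rested on every mouse, and it was detected in 46.4% of immature and 9.55% of other neutrophils (26.8% and 6.07% after thinning). Fcnb, the ficolin of early neutrophil precursors, averaged 50.98 ± 23.0 CPM against 3.72 ± 2.27 CPM. Only 64 of the 1279 cells had a listed count of Fcnb. Its smallest nonzero count in the matrix is 5, so lower counts may have been removed before deposit. Cybb, the catalytic subunit of the NADPH oxidase, averaged 1971 ± 185 CPM against 416 ± 71.0 CPM. Lta4h, whose product completes leukotriene B4, averaged 335 ± 19.0 CPM against 33.1 ± 6.73 CPM, a 9.87-fold ratio. Ltb4r1, the gene of a leukotriene B4 receptor, averaged 432 ± 94.0 CPM against 171 ± 8.64 CPM.

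The other genes among the 10 with the highest ratio were Zmpste24, a zinc metalloprotease that processes prelamin A (199 ± 17.5 CPM against 14.2 ± 3.93 CPM), Lbp, the lipopolysaccharide-binding protein (80.9 ± 25.6 CPM against 7.29 ± 1.79 CPM), and Hvcn1, the voltage-gated proton channel that serves the oxidase (55.6 ± 11.7 CPM against 7.93 ± 3.29 CPM). Inhba, a subunit of activin, averaged 54.6 ± 14.0 CPM against 8.02 ± 1.67 CPM. Olfml2b and 4930438A08Rik completed them with 92.9 ± 13.9 CPM against 14.2 ± 3.78 CPM and 91.2 ± 14.0 CPM against 17.7 ± 6.36 CPM. All of these were higher in each of the 4 mice. Of the specific granule list, 7 of 15 measured genes outside the conditions were more than 2-fold higher and none lower, and of the promyelocyte to myelocyte list 7 of 9, beside 4.54% higher and 6.99% lower of 6338 genes of all kinds at the same minimum of 10 CPM. The median log2 difference was 0.98 for the specific granule list, 2.06 for the myelocyte list and -0.09 over all genes.

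Genes of the mature, inflamed neutrophil were lower. Il1b, the cytokine interleukin-1 beta, had 123 and 118 CPM in treated and 38.1 and 291 CPM in untreated mice, against 1873 and 1648 CPM in treated and 1410 and 2224 CPM in untreated mice in other neutrophils. Ccl6, a CC chemokine, averaged 199 ± 14.2 CPM against 2178 ± 460 CPM, and was detected in 33.5% against 84.9% of cells (15.5% and 76.4% after thinning). Clec7a, the beta-glucan receptor Dectin-1, averaged 29.1 ± 7.86 CPM against 441 ± 29.5 CPM. Every mouse showed the lower value in the immature neutrophils for these genes, while Il1b varied most between mice.

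Csf3r, the receptor for granulocyte colony-stimulating factor, averaged 311 ± 14.5 CPM against 1264 ± 121 CPM in other neutrophils. Cxcr2, the receptor that draws neutrophils towards CXC chemokines, averaged 968 ± 108 CPM against 2196 ± 128 CPM. Of the list of retention and migration receptors 5 of 16 genes were more than 2-fold lower and 1 higher, of the inflammatory effector list 10 of 22 lower, and of the interferon-stimulated list 11 of 18 lower. Ifitm1, an interferon-induced membrane protein, averaged 342 ± 217 CPM against 2930 ± 617 CPM. Among stefins and cystatins, inhibitors of cysteine proteases, 5 of 8 were lower, with Cstdc4 at 137 ± 42.9 CPM against 811 ± 114 CPM.

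The remaining genes among the 10 with the lowest ratio were Prr5l (3.33 ± 1.19 CPM against 66.7 ± 27.6 CPM), the secreted protein gene Wfdc17 (168 ± 116 CPM against 2024 ± 917 CPM), the tetraspanin gene Tspan13 (14.4 ± 4.62 CPM against 175 ± 6.60 CPM), and Ttr and 4 haemoglobin genes. The last 5 rested on few cells. The other neutrophils' counts of Hbb-bs came from 9 cells and those of Ttr from 1 cell. Of 15 gelatinase and secretory genes, 9 were lower and 2 higher in all 4 mice, beside 1923 lower and 1214 higher of 6338 genes of all kinds. The median log2 difference of the 15 was -0.41, and 3 were more than 2-fold lower and 1 higher. Mmp8 averaged 4990 ± 646 CPM against 5159 ± 268 CPM, with overlapping mice, Mmp9 3334 ± 323 CPM against 3601 ± 141 CPM, and Retnlg, which encodes a resistin-like protein, 23272 ± 5353 CPM against 48380 ± 1296 CPM.

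**Figure D1:**
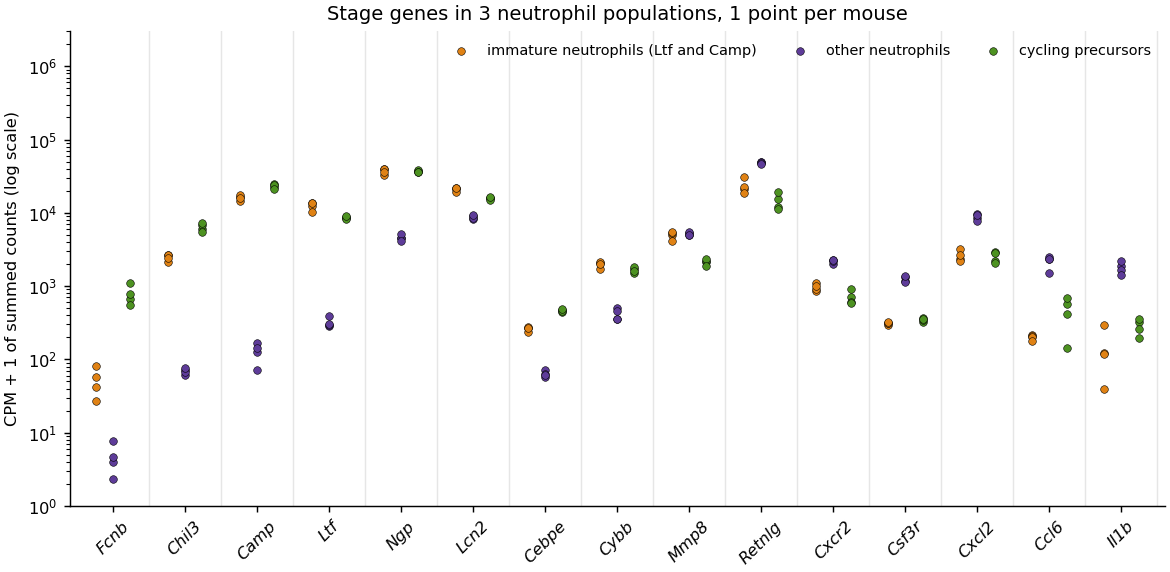
CPM plus 1 per mouse (log axis) of granule, myelocyte, receptor and inflammatory genes in immature neutrophils, other neutrophils and cycling precursors, with 1 point per mouse. Chil3, Ngp, Cebpe and Cybb lie higher in immature neutrophils than in other neutrophils in all 4 mice, and Csf3r, Ccl6 and Il1b lie lower.

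Cycling neutrophil precursors, 645 cells with Mki67 or Top2a and the same S100 values, shared the granule genes but had more of the earliest ones. Ngp averaged 37205 ± 2964 CPM in immature neutrophils and 36794 ± 970 CPM in the cycling cells, whose values lay within the spread of the mice. Fcnb averaged 50.98 ± 23.0 CPM against 779 ± 237 CPM, Chil3 2475 ± 262 CPM against 6360 ± 823 CPM, and Cebpe 265 ± 17.3 CPM against 468 ± 17.3 CPM. Mmp8 went the other way, at 4990 ± 646 CPM against 2129 ± 179 CPM. Several genes with the highest ratio to other neutrophils had higher means still in the cycling cells. These were Lta4h (545 CPM), Zmpste24 (278 CPM), Hvcn1 (157 CPM), Lbp (113 CPM) and Inhba (81.1 CPM). Olfml2b and 4930438A08Rik had lower means there, at 82.7 and 89.6 CPM. Stmn1, a microtubule regulator of dividing cells, averaged 7.97 ± 3.19 CPM in immature neutrophils, 8.96 ± 1.73 CPM in other neutrophils and 399 ± 45.4 CPM in cycling precursors. Of the cell cycle genes not used as conditions, 10 had at least 10 CPM, and 0 of these differed more than 2-fold between immature and other neutrophils. The 30 in the matrix summed to 3074 and 2972 CPM in treated and 2771 and 2849 CPM in untreated mice in immature neutrophils, and to 2569 and 2588 CPM in treated and 2455 and 2333 CPM in untreated mice in other neutrophils, without overlap. In cycling precursors they summed to at least 10022 CPM. Of the 3074 CPM in immature neutrophils of inhibitor-treated replicate 1, Hmgn2 gave 1090.5, Hmgb2 1047 and Ccnd3 601 CPM. Hmgn2 is also on the promyelocyte to myelocyte list.

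The immature neutrophils were not uniform. Cells of each mouse were ordered by Ltf counts per 10000 counts and cut into 3 equal groups, low, middle and high, of 428, 426 and 425 cells, with medians of 46.0, 131 and 200 Ltf counts per 10000. The groups are ranges along 1 measure and not types, and 309 cells lay within 10% of a cut. Median depth was similar, at 11419, 11630 and 11443 counts per cell. Values are means over the 4 mice in the order low, middle and high, with the SD over mice.

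Secondary granule transcripts went up together along the Ltf order. Camp averaged 7085, 17278 and 23051 CPM, and Ngp 21922, 38743 and 50274 CPM. Chil3 showed a steeper gradient of 673, 2593 and 4080 CPM in its listed counts. Cebpe averaged 134 ± 44.8, 293 ± 28.0 and 359 ± 54.3 CPM, so its transcript was more abundant in cells with more granule transcript. Cybb averaged 1208, 1961 and 2710 CPM, and Fcnb 14.8, 54.8 and 80.8 CPM. Orm1, which encodes the acute-phase protein orosomucoid, averaged 3.65, 59.8 and 77.8 CPM and was near 0 in the low group.

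Many receptor and effector genes, though not all, ran in the opposite direction. Retnlg averaged 39846 ± 5483, 20810 ± 7644 and 9935 ± 1909 CPM. Cxcr2 averaged 1355 ± 139, 973 ± 125 and 589 ± 67.9 CPM, and Csf3r 439 ± 16.2, 295 ± 37.2 and 204 ± 38.3 CPM. Ccl6 averaged 381 ± 64.1, 186 ± 51.9 and 40.3 ± 23.3 CPM. The high group was below the low group in all 4 mice for each of these. The low group therefore lay nearer to the other neutrophils on both sets of genes, although its Ccl6 and Csf3r were still well below their levels of 2178 and 1264 CPM there.

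**Figure D2:**
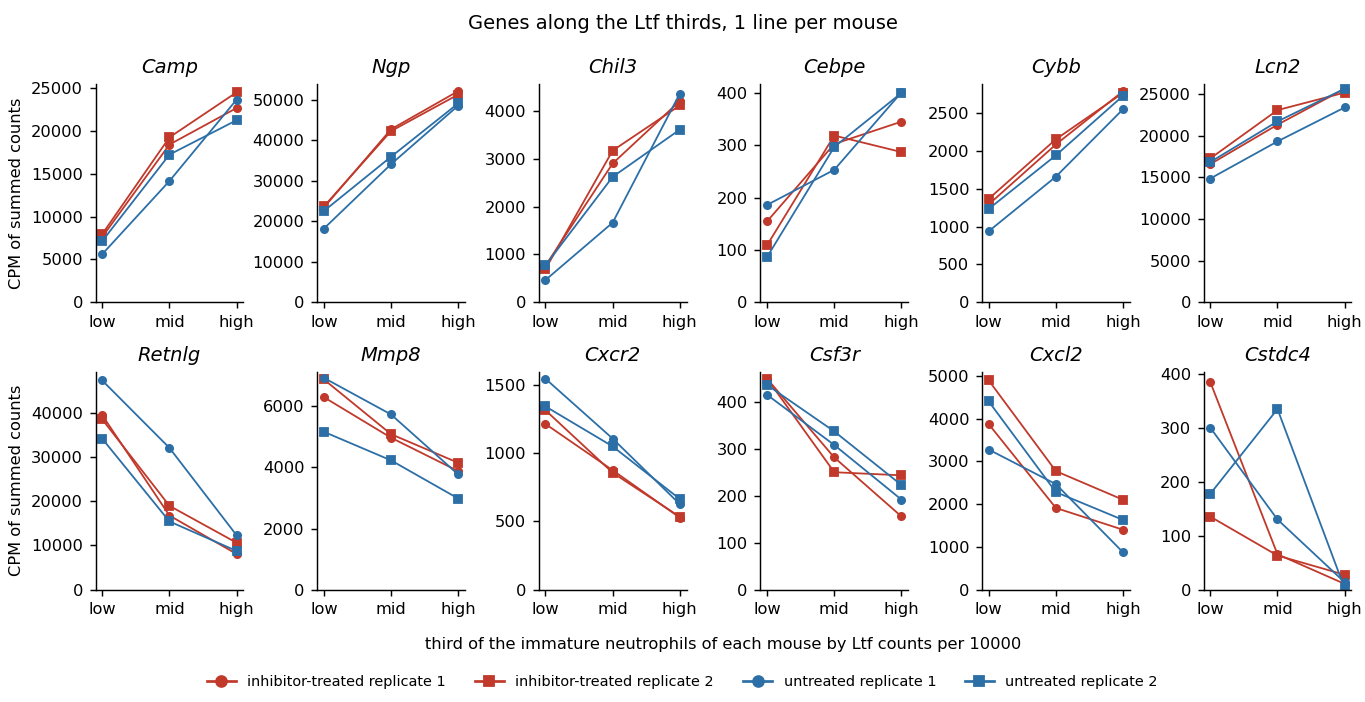
CPM (linear axes that start at 0) of 12 genes in the low, middle and high groups by Ltf, with 1 line per mouse. Camp, Ngp, Chil3, Cebpe, Cybb and Lcn2 are higher in the high group than in the low group in all 4 mice, and Retnlg, Mmp8, Cxcr2, Csf3r, Cxcl2 and Cstdc4 are lower.

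Counted over the gene lists, the high group was above the low group in all 4 mice for 8 of 9 myelocyte genes and 11 of 16 specific granule genes. It was below in all 4 mice for 11 of 15 gelatinase and secretory genes, 10 of 15 receptors, 12 of 21 inflammatory effectors and 8 of 15 interferon-stimulated genes. Of these lists, 1 gelatinase and secretory gene and 2 receptors, Ltb4r1 and Itgam, were above in all 4 mice. Over all 5828 genes with enough counts, 819 were above and 830 below in all 4 mice. Pglyrp1, a peptidoglycan recognition protein stored in granules, was an exception within the granule list at 3282 ± 131, 3236 ± 150 and 3018 ± 31.5 CPM, lower in the high group in all 4 mice. S100a9 was nearly level at 119568, 123861 and 116169 CPM. Cytosolic ribosomal protein genes were above in all 4 mice for 17 of 32, with none below, and the endoplasmic reticulum list for 7 of 20, with none below.

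The inhibitor comparison asked first whether the number of these cells differed. Immature neutrophils made up 10.97% (exact 95% interval 10.2 to 11.8%) and 6.63% (5.97 to 7.35%) of kept cells in the treated mice, against 3.56% (3.05 to 4.13%) and 2.99% (2.53 to 3.50%) in the untreated mice. The groups averaged 8.80 ± 3.06% and 3.27 ± 0.404% (SD, n = 2 each), a difference of 5.53 percentage points and a 2.69-fold ratio. The treated mice did not overlap the untreated mice, but the spread between the treated mice was wide. An exact two-sided permutation test gave p = 0.33, the smallest value that 2 against 2 mice allow. The intervals cover counting error only. Without inhibitor-treated replicate 1 the difference was 3.36 percentage points.

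The other neutrophil populations also had higher shares in the treated mice. Other neutrophils made up 21.03 ± 8.11% of kept cells in treated mice and 8.58 ± 2.38% in untreated mice, a 2.45-fold ratio, and cycling precursors 4.16 ± 1.40% and 1.96 ± 0.0793%, a 2.12-fold ratio. As a share of all neutrophils, the immature cells were 25.6% and 26.4% in treated mice, against 22.6% and 25.1% in untreated mice. That difference was 2.15 percentage points between means of 26.0 ± 0.599% and 23.8 ± 1.75%, with the same exact p of 0.33. Without the exclusion genes, which removed a larger part of the cells in untreated replicate 2, the share of kept cells was 24.4% and 14.4% in treated mice, against 8.003% and 8.39% in untreated mice. This alternative was added after the data were seen.

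**Figure D3:**
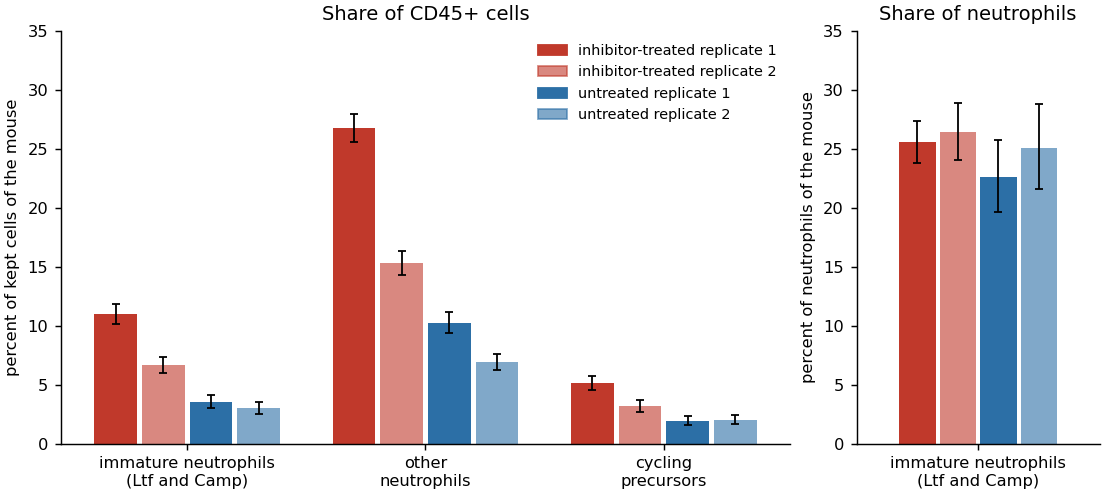
Percent of kept cells per mouse for immature neutrophils, other neutrophils and cycling precursors, and immature neutrophils as percent of neutrophils, with 1 bar per mouse, exact 95% binomial intervals as error bars and treated mice left of untreated mice. Both treated mice, at 10.97% and 6.63% of kept cells, lie above both untreated mice, while the shares of neutrophils lie between 22.6% and 26.4%.

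Within the immature neutrophils, no gene passed the threshold between inhibitor-treated and untreated mice. The immediate early gene Egr1 and the chemokine gene Ccl3 had lower levels in the treated mice across many cells. H2-Ab1 and C1qa had lower levels from few cells with a listed count, and Cd74 and C1qb lower levels from 577 and 263 cells. Ngp, Camp, Ltf and Lcn2 differed by at most 0.13 on the log2 scale. Counts were summed per mouse and 9235 genes were tested with edgeR's quasi-likelihood test. At an adjusted p of 0.05, 0 genes were called (0%), and the smallest adjusted p was 0.578. At an unadjusted p of 0.05, 288 genes were higher (3.12%) and 269 lower (2.91%) in treated mice. DESeq2 called 0 higher and 6 lower, namely Stfa3, C1qa, H2-Ab1, Egr1, Ccl3 and Cd74. With 1 mouse left out, which leaves a lone mouse assumed to vary like the others, edgeR called 127 higher and 138 lower without untreated replicate 1 and 78 and 59 without untreated replicate 2. It called 4 and 5 without inhibitor-treated replicate 1 and 0 and 6 without inhibitor-treated replicate 2. Both treated mice lay above both untreated mice for 1917 genes (20.8%) and below them for 1345 (14.6%).

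Egr1, a zinc finger transcription factor induced within minutes of a stimulus, had 77.6 and 90.4 CPM in treated mice, against 148 and 239 CPM in untreated mice. Its log2 fold change was -1.26 ± 0.24 (SE, n = 2 each), with an edgeR adjusted p of 0.809. It was detected in 33.4% and 31.2% of cells in treated mice, against 39.9% and 54.7% in untreated mice. No cell gave more than 1.35% of its counts summed over all mice, and the largest share within a single mouse is higher. The groups did not overlap in level or in detection. DESeq2 gave it an adjusted p of 0.00223, and over the alternatives its adjusted p ran up to 0.927. Its smallest value came from a fit with a lone untreated mouse and is not given.

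Ccl3, the macrophage inflammatory protein 1-alpha, had 70.7 and 67.7 CPM in treated mice, against 119 and 183 CPM in untreated mice (log2 fold change -1.18 ± 0.23, edgeR adjusted p = 0.809). It was detected in 18.9% and 21.3% of cells in treated mice, against 27.4% and 38.5% in untreated mice. Ccl4, its neighbour in the chemokine family, had 10.6 and 12.5 CPM against 25.7 and 29.7 CPM, and was named after its values were seen. For Ccl3, DESeq2 gave an adjusted p of 0.00891, and the alternatives ran up to 0.927. Their smallest value, from a fit with a lone untreated mouse, is not given. Cells with a listed count of Hba-a1, Hbb-bs, Cd4, Cd8a, Igkc, C1qa or Csf1r were 161 and 91 in treated and 47 and 47 in untreated mice. With these left out, the log2 fold changes were -1.06 for Egr1 and -0.999 for Ccl3. Hba-a1, Hbb-bs, Igkc and C1qa are genes without small counts in the matrix, so cells with lower counts of them may have stayed. Whether Egr1 and Ccl3 counts came from other cell types was not tested.

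H2-Ab1, a chain of the class II antigen-presenting molecule, had 3.92 and 2.27 CPM in treated mice, against 24.4 and 23.6 CPM in untreated mice. Its log2 fold change of -2.95 ± 0.45 had an edgeR adjusted p of 0.578. All of its counts came from 3 and 1 cells in treated mice and from 4 and 3 cells in untreated mice. C1qa, a chain of complement C1q made by macrophages and microglia, had 9.03 and 7.95 CPM against 31.1 and 51.6 CPM (-2.33 ± 0.36, edgeR adjusted p = 0.578), from 9 and 3 against 5 and 7 cells. For both genes the smallest nonzero count in the matrix is 6, so cells with fewer may be listed at 0. DESeq2 gave adjusted p values of 0.000486 for H2-Ab1 and 0.000416 for C1qa. Over the alternatives the adjusted p ran up to 0.990 for H2-Ab1 and up to 0.832 for C1qa. The smallest values came from a fit with a lone untreated mouse and are not given.

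Marker lists of other cell types did not share a direction between treated and untreated mice. All 11 tested microglia markers were lower in the treated mice with no overlap, beside 14.6% of all genes, with a summed level over the list of 586 and 549 CPM in treated and 732 and 758 CPM in untreated mice and P2ry12 at 0 by the conditions. Selplg, which neutrophils also express, gave 474 and 425 CPM of that sum in treated mice and 507 and 491 CPM in untreated mice. All 9 tested dendritic cell markers had a negative fold change, and their sum was 95.3 and 126 CPM in treated mice against 195 and 297 CPM in untreated mice. With the cells that carried Hba-a1, Hbb-bs, Cd4, Cd8a, Igkc, C1qa or Csf1r left out, the log2 fold change was -0.44 for H2-Ab1 and 0.05 for Cd74, the invariant chain of class II molecules, which had 61.3 and 78.8 CPM against 126 and 148 CPM before. The sum of T cell markers was 86.7 and 101 CPM in treated mice and 85.6 and 107 CPM in untreated mice. Monocyte and macrophage markers summed to 2630 and 2873 CPM against 2697 and 2809 CPM, with overlap. B lineage markers were higher in treated mice, at 59.4 and 63.8 CPM against 50.1 and 39.3 CPM. Progenitor markers were lower, at 46.2 and 41.8 CPM against 54.6 and 48.9 CPM.

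Stfa3, a stefin, had 15.7 and 21.6 CPM in treated mice, against 48.4 and 102 CPM in untreated mice (-2.08 ± 0.37, edgeR adjusted p = 0.809, up to 0.977 over the alternatives). Without untreated replicate 1, which leaves untreated replicate 2 alone, its log2 fold change was -2.54. In untreated replicate 2, 1 cell gave 209 of its 233 counts (89.7%). Irf8, a transcription factor of the monocyte and dendritic lineages, had 9.63 and 9.31 CPM against 28.8 and 32.3 CPM, and 1 cell gave 71.6% of its counts in untreated replicate 2. C1qb, which has small counts in the matrix, had 18.9 and 22.7 CPM against 48.4 and 41.9 CPM. Its counts came from 123 of 620 and 69 of 343 cells in treated mice and from 37 of 168 and 34 of 148 cells in untreated mice. A930024E05Rik and Abca9, which complete the 10 lower genes with the smallest p, each had 1 count in treated mice. Single cells thus gave most of the counts of several of these genes in a mouse.

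The 10 genes with the smallest p among those higher in treated mice had an edgeR adjusted p of 0.809 each. Gde1, a glycerophosphodiester phosphodiesterase, had 104 and 90.8 CPM in treated mice, against 51.02 and 52.9 CPM in untreated mice (log2 fold change 0.86 ± 0.19), from 355 cells. Cebpz, a nucleolar protein despite its symbol, had 74.9 and 86.1 CPM against 43.9 and 40.2 CPM (0.89 ± 0.20), from 343 cells. Tgm2, transglutaminase 2, had 38.4 and 43.6 CPM against 17.3 and 17.5 CPM (1.19 ± 0.28), from 131 cells. These 3 were spread over many cells, although in untreated replicate 2 a single cell gave 16 of the 40 Tgm2 counts.

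Golga4, a golgin of the Golgi apparatus, had 26.4 and 23.2 CPM in treated mice against 7.10 and 8.74 CPM in untreated mice, Utrn, which encodes utrophin, 21.5 and 26.1 CPM against 7.54 and 7.86 CPM, and Nudt3, a diphosphoinositol polyphosphate phosphohydrolase, 21.2 and 19.3 CPM against 3.99 and 6.99 CPM. The others had low counts. Nolc1 had 83 and 35 counts against 2 and 0, Ppme1 108 and 38 against 4 and 3, and Spns3 39 and 32 against 0 and 1. Rasip1 had 57 counts in treated mice and 0 in untreated mice, at least 6.73-fold higher against a floor of 3 counts over the untreated group.

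**Figure D4:**
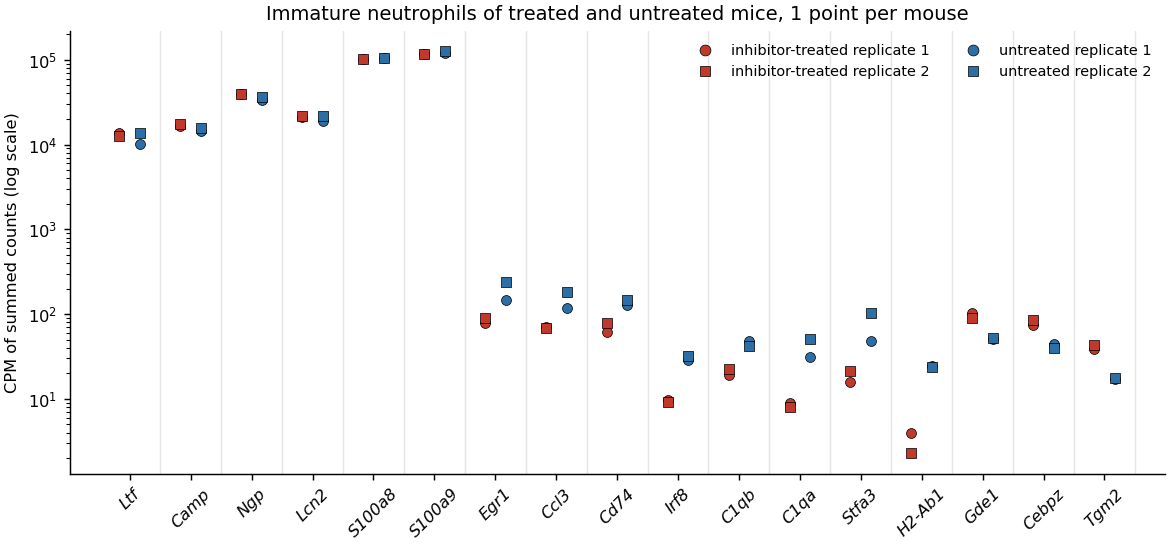
CPM per mouse (log axis) of genes named in the treatment comparison, inhibitor-treated left of untreated, with 1 point per mouse. Egr1, Ccl3, H2-Ab1 and C1qa lie lower and Gde1, Cebpz and Tgm2 higher in both treated mice, while Ngp, Camp, Ltf and Lcn2 lie close together.

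The marker genes and the S100 genes showed small differences. Ngp had 39797 and 39179 CPM in treated mice, against 33291 and 36555 CPM in untreated mice (log2 fold change 0.13 ± 0.08, edgeR adjusted p = 0.878). Camp had 16460 and 17327 CPM against 14299 and 15686 CPM (0.13 ± 0.09), Ltf 13703 and 12580 CPM against 10281 and 13691 CPM (0.08 ± 0.14) and Lcn2 21309 and 21892 CPM against 19113 and 21664 CPM (0.04 ± 0.09). The mice overlapped for Ltf and Lcn2 but not for Ngp and Camp. Without untreated replicate 2, edgeR called all 4 higher in treated mice, with log2 fold changes of 0.25 for Ngp, 0.24 for Camp, 0.36 for Ltf and 0.18 for Lcn2. S100a8 and S100a9 differed by -0.10 ± 0.05 and -0.11 ± 0.06 on the log2 scale. Lyz2, the myeloid lysozyme, differed by -0.14 ± 0.13 with overlapping mice.

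Over the specific granule list, which here includes Ltf and Camp of the conditions, 13 of 17 tested genes had a positive fold change. The median was 0.08. Of the 17, 9 lay without overlap above the untreated mice, beside 20.8% of all genes, and 2 below, beside 14.6%. Camp was among the 9 and Ltf was not. Olfm4, which encodes the granule protein olfactomedin-4 and is named after its values were seen, had 175 and 134 CPM in treated mice, against 73.6 and 118 CPM in untreated mice (0.63 ± 0.25, edgeR adjusted p = 0.813), and was called without untreated replicate 2 (1.07). The gelatinase and secretory list had 10 of 15 positive and a median of 0.04, and 3 of its genes lay above without overlap. Retnlg had 20997 and 22574 CPM in treated mice, against 30917 and 18599 CPM in untreated mice (-0.22 ± 0.17). Without untreated replicate 1 its log2 fold change was 0.16. Mmp8 differed by 0.08 ± 0.12, Mmp9 by 0.01 ± 0.11 and the formyl peptide receptor gene Fpr2 by 0.06 ± 0.11, all with overlapping mice. The azurophil granule list had 2 of 9 tested genes positive and a median of -0.47. Of its genes 2 lay above and 4 below the untreated mice without overlap. The median of all genes was -0.004.

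In the inflammatory effector list 12 of 22 genes were positive with a median of 0.02. Cxcl2, a chemokine that binds Cxcr2, differed by 0.14 ± 0.17, the NF-kappaB inhibitor gene Nfkbia by 0.21 ± 0.14 and the decoy receptor gene Il1r2 by 0.12 ± 0.13. Clec4e, the receptor Mincle, had 302 and 356 CPM in treated mice against 457 and 402 CPM in untreated mice (-0.43 ± 0.14, edgeR adjusted p = 0.809). None of the list passed the threshold, and the members did not share a direction.

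In the interferon-stimulated list only 2 of 17 genes were positive, with a median of -0.30, and 6 were lower at an unadjusted p of 0.05, beside 2.91% of all genes. Ifitm3 had 1614 and 1533 CPM in treated mice, against 1826 and 1733 CPM in untreated mice (-0.22 ± 0.10). Ifitm1 had 307.5 and 158 CPM against 248 and 654 CPM (-1.01 ± 0.43), with overlapping mice. Slfn4 differed by -0.19 ± 0.20. Apart from Ifitm1, the 6 genes were Gbp2, Ifi204, Ifi47, Ifit1 and Oasl1, all at low levels. Oasl1, an oligoadenylate synthetase-like protein, had 9.03 and 2.50 CPM against 19.1 and 16.6 CPM. These 5 were named after their values were seen.

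Of 9 tested stefins and cystatins 0 were positive, with a median of -0.54. Cst3, cystatin C, differed by -0.09 ± 0.16, Stfa2l1 by -0.72 ± 0.44, Cstdc4 by -0.58 ± 0.28 and Cstb by -0.02 ± 0.20. Of these 4, only Cstdc4 lay without overlap, at 148 and 74.9 CPM in treated mice against 151 and 174 CPM in untreated mice. Of 13 mitochondrially encoded genes 0 were positive, with a median of -0.54, and 3 lay without overlap below, beside 14.6% of all genes. The mitochondrial list summed to 14424 and 15978 CPM in treated mice, against 15555 and 25228 CPM in untreated mice, so untreated replicate 2 stood apart. mt-Cytb, a subunit of respiratory complex III, had 1476 and 1741 CPM against 1720 and 2914 CPM (-0.58 ± 0.23), and mt-Co1, mt-Co2 and mt-Co3 of complex IV differed by -0.35 ± 0.16, -0.42 ± 0.20 and -0.51 ± 0.22.

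**Figure D5:**
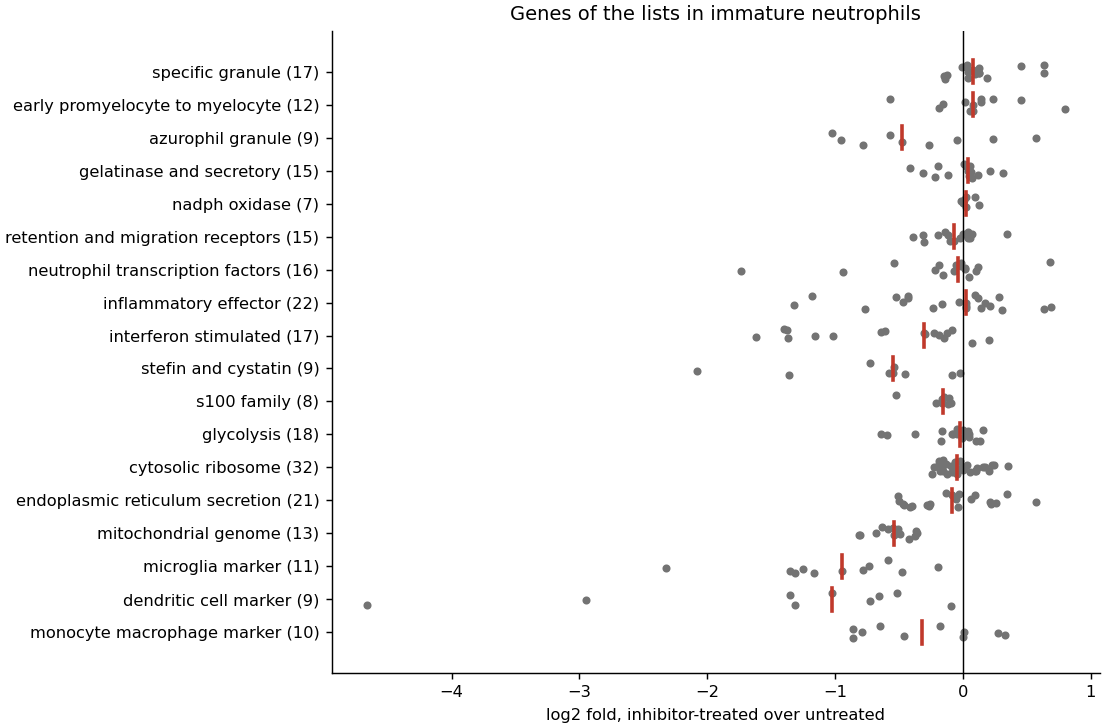
Log2 fold change, inhibitor-treated over untreated, of each tested gene in the gene lists, with 1 point per gene and a red bar at the list median. The specific granule list and the gelatinase and secretory list centre near 0, with medians of 0.08 and 0.04. The azurophil granule list has a median of -0.47. Interferon-stimulated, stefin and mitochondrial genes have medians of -0.30, -0.54 and -0.54 and microglia markers -0.94.

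Whether the treatment difference itself differed between immature and other neutrophils was tested for 11135 genes, on sums per mouse and population with the mouse as a block. With edgeR 0 genes were called (0%), the smallest adjusted p was 0.952, and 557 genes had an unadjusted p under 0.05. Among the 5 genes with the smallest p, Jaml, a junctional adhesion molecule of leukocytes, had a log2 interaction of -1.37 ± 0.26. Its values in immature neutrophils were 43.6 and 26.3 CPM in treated mice against 91.8 and 51.1 CPM in untreated mice, and its values in other neutrophils 429 and 402 CPM against 487 and 203 CPM. Txnrd1, thioredoxin reductase, had 53.4 and 43.4 CPM against 23.1 and 23.6 CPM in immature neutrophils, and 24.8 and 17.4 CPM against 30.2 and 32.2 CPM in other neutrophils (1.62 ± 0.34). Tgm2 had 45.9 and 53.5 CPM against 52.7 and 64.1 CPM in other neutrophils (1.46 ± 0.31). The mice did not overlap for Txnrd1 in either population, with opposite directions, and they overlapped for Tgm2 in other neutrophils. Spns3 and Mpp6, the other members of the 5, had few counts.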

How the data were processed

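The measurement was single-cell RNA sequencing of pooled, hashtagged CD45+ spinal cord cells of 4 mice. The authors deposited 1 matrix of raw counts for 28482 genes and 25461 cell columns. The submitters' processing notes name GRCm38 as the build. No source used here gives the aligner, the counting tool, whether strand was used, or whether counts stand for molecules or for reads. The name of the file records a distribution-based error correction (DBEC). The mouse and group came from the hashtag in each column name. The 3943 columns with more than 1 hashtag entered no comparison.

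From the 21518 columns with 1 hashtag, cells with at most 20% mitochondrial counts were kept (20504). Doublets were not removed in the main result. An alternative removed the 1248 cells with the largest share of multi-hashtag neighbours among their 50 nearest, which took 36 of the 1279 immature neutrophils. Counts were summed per mouse, filtered with filterByExpr, scaled by TMM and tested with edgeR 4.0.16 (R 4.3.3) by glmQLFit and glmQLFTest, with Benjamini-Hochberg adjustment over all genes tested at 0.05. DESeq2 1.42.0 was an alternative. Shares were compared by an exact permutation test (scipy 1.17.1). The intervals are Clopper-Pearson. The test code was tested on simulated data. No test was made of immature against other neutrophils or of the Ltf groups, since expression chose them. Genes under their matrix symbols with near-identical copies (haemoglobin, stefin, Cstdc and Ifit genes) could share reads.

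The cells, gene lists and tests were chosen with earlier results of these data known. Named genes are the 10 with the smallest p in each direction, the marker and S100 genes, the 4 members of a list with the highest CPM, the 10 largest and 10 smallest ratios to other neutrophils, and the 5 smallest p of the interaction. A gene that this rule names is not reported here. Of the lists, those described with 4 members were picked after values were seen. The replicate numbers shared by the groups did not pair the mice. Alternatives changed the scaling, the low-count filter, the limits on S100, Ltf, Camp and mitochondrial counts, doublets, depth and the exclusion genes.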

Additional observations from a re-analysis of the deposited data

Results flagged for a closer look

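Some columns with more than 1 hashtag, which entered no comparison, also met the conditions for immature neutrophils. A column of this kind can mix the counts of more than 1 cell. Of 3723 such columns within the mitochondrial limit, 167 met all conditions (4.49%, exact 95% interval 3.84 to 5.20%), against 6.24% of the columns with 1 hashtag. A signal in columns that no comparison uses is what flagged them, since it lies above the 0.0806% that a count of 0 would allow. Neutrophils were common among the cells kept, so a value above that was to be foreseen in mixed columns. The flagged columns cannot be given to a mouse.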

How the results depend on the processing

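With no filter on low counts, edgeR called 9 genes higher and 19 lower in treated mice and 15 interactions, and the median of 21711 genes was 0.13 on the log2 scale. DESeq2 called 6 lower, and the fit with a replicate block 5 lower (Stfa3, H2-Aa, Egr1, C1qa and H2-Ab1). The block had little basis: the correlation of the replicate differences was 0.02 over 9235 genes and -0.05 over the 2064 genes with at least 50 CPM. The share difference with the replicate block was 5.53 percentage points, between 3.65 and 7.41 in the pairs. With 1 mouse left out, calls ranged between 0 and 127 higher, 5 and 138 lower, and 5 and 178 interactions, and the share difference between 3.36 and 7.69 percentage points. The cause was not tested. The largest numbers came without untreated replicate 1 (127 higher, 138 lower) and untreated replicate 2 (178 interactions). The share difference kept its direction under every alternative run, between 5.18 and 5.69 points when the limits on cells were changed, 2.15 among neutrophils, 9.02 with only Mki67 and Top2a as exclusion genes and 11.2 with none. Of 668 values of named genes under alternatives 566 kept their direction and their side of the threshold, 78 newly passed it, and 24 reversed sign. Without exclusion genes the log2 fold change was -0.0741 for Nudt3, 0.0219 for S100a8, 0.00422 for S100a9, 0.0292 for Slfn4 and 0.11 for Cstb. With cells carrying genes of other types left out it was 0.0465 for Cd74, -0.0755 for Il1r2 and 0.12 for Cst3. With thinned cells it was -0.0100 for Fpr2 and 0.0351 for Cst3, and with no filter 0.0527 for Cstb. With 1 mouse left out, values spanned 0 for Ltf (-0.12 to 0.36), Lcn2 (-0.0680 to 0.18), Lyz2 (-0.33 to 0.11), Retnlg (-0.50 to 0.16), Mmp8 (-0.0853 to 0.29), Mmp9 (-0.11 to 0.17), Cxcl2 (-0.10 to 0.37), Slfn4 (-0.47 to 0.20), Cst3 (-0.27 to 0.16), Stfa2l1 (-1.32 to 0.39), Cstb (-0.21 to 0.24) and mt-Co2 (-0.73 to 0.0213). At the depth of 2254078 to 8412684 counts per mouse, genes with few counts, such as Rasip1, are the ones it limits.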

Other observations

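Further gene lists had these values in treated against untreated mice. The 7 genes of the NADPH oxidase, which makes superoxide, were present throughout, and 6 of 7 had a positive fold change with a median of 0.02 on the log2 scale, 4 of them above the untreated mice without overlap, beside 20.8% of all genes. Ncf1, a cytosolic subunit, had 1650 and 1633 CPM in treated mice, against 1622 and 1512 CPM in untreated mice, and Rac2, its GTPase, 2140 and 2044 CPM against 2126 and 1959 CPM. Glycolysis genes (7 of 18 positive, median -0.03), ribosomal protein genes (12 of 32, -0.05), endoplasmic reticulum genes (7 of 21, -0.08) and survival genes (7 of 14, 0.03) had no member past the edgeR threshold. In the survival list Cflar, an inhibitor of caspase-8, had 80.5 and 71.5 CPM in treated mice against 112 and 107 CPM in untreated mice (-0.57 ± 0.17, edgeR adjusted p = 0.809), and Mcl1 504 and 507 CPM against 566 and 527 CPM. All 8 S100 genes, which include S100a8 and S100a9 of the conditions, had a negative fold change, with a median of -0.16.

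Stap1, an adaptor whose product the series title names, had 127 and 121 CPM in treated mice, against 143 and 160 CPM in untreated mice, and was detected in 42.1% of immature and 26.0% of other neutrophils at unequal depth, and in 17.4% and 14.1% of cells thinned to 2000 counts. Stap2 had a count in 14 of the 1279 cells.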
